A study of Homo sapiens with 21 samples.

Results

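The comparison set HepG2 cells kept for 24 h in 100 µM caffeine against HepG2 cells kept for 24 h in 10 µM caffeine. HepG2 is a human hepatocellular carcinoma line. The members were chosen by the dose in the sample titles and are 6 of the 21 libraries of the series, 3 cultures per dose, given as biological replicates in the series' design. Both groups were in serum-free DMEM, in which the caffeine was dissolved, and the remaining groups of 3 had no caffeine or 0.01, 0.1, 1 or 1000 µM. RNA was taken through poly(dT) beads before reverse transcription and sequencing. The comparison asks what differed between 2 treated doses, so neither group is an untreated control.

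Caffeine is a methylxanthine that blocks adenosine receptors and, at higher concentrations, inhibits cyclic nucleotide phosphodiesterases. Cells prepare for division by transcribing genes for DNA replication around the G1/S boundary and genes for the spindle, kinetochore and cytokinesis in G2 and mitosis. The G1/S genes are controlled largely by E2F factors and the pocket proteins RB1, RBL1 and RBL2, and the G2/M genes by the DREAM and MuvB complexes with FOXM1 and MYBL2, while p53 and the CDK inhibitors act as brakes.

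One difference between libraries has to be known before the results. Mitochondrial transcripts made up 4.82% to 4.94% of counts in the 10 µM libraries, 4.72% in 100 µM replicate 2, and 12.7% to 12.8% in 100 µM replicates 1 and 3. Counts of MT-ND4 divided by those of MT-CO1 gave 0.408 to 0.442 at 10 µM, 0.452 in replicate 2, and 0.878 to 0.915 in replicates 1 and 3. Clustering of all 21 libraries on 13 mitochondrial mRNAs put the 10 µM libraries and 100 µM replicate 2 into 1 set of 7 (set B, with 1 µM replicate 3 and 1000 µM replicates 1 and 2). It put 100 µM replicates 1 and 3 into another with 1000 µM replicate 3 (set C), and the remaining 11 libraries into set A. Replicates 1 and 3 differed from each other by a chi-square per feature of 3.87, and from replicate 2 by 146 and 130, against 3.39 to 9.56 among the 10 µM libraries. Total counts were 32258970 to 36184858 at 10 µM, 44815552 in 100 µM replicate 2 and 23502519 to 27934748 in replicates 1 and 3. Results are therefore given over all 3 libraries at 100 µM, and each list also by the calls that held, meaning that replicate 2 alone, tested against the 10 µM libraries within set B, was called in the same direction. The replicate 2 difference of a called gene is given at least where it lost the call or differed by over 1.5 times. Replicate 2 is also 1 of the 3 libraries in the first test, and both tests use the same 10 µM libraries. As a lone library, replicate 2 is assumed to vary like the other groups of its set. A fit with library set as a term is quoted where it ends a call or moves a called difference by over 1.5 times.

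The cell label was checked against 10 hepatocyte and HepG2 markers, among them ALB, AFP, APOB, HNF4A and GPC3. None was below 35.5 CPM (read counts scaled to a common library size with TMM factors) in any of the 6 libraries. Of 21 markers of fibroblast or stellate, endothelial, blood, cholangiocyte and neural cells, 10 had at most 3 counts in every library and LUM, DCN, PTPRC and CD3E had 0 in all 6. The summed level of the 21 ran from 1826 to 1878 CPM at 10 µM and from 2136 to 2250 CPM at 100 µM, with 2136 CPM in replicate 2, and most of it was LYZ, which encodes lysozyme. LYZ stood at 1263, 1217 and 1239 CPM at 10 µM and 1623, 1551 and 1630 CPM at 100 µM, so the doses did not overlap. Among all 17951 features tested, 50.2% likewise had no overlap between doses, a share that applies wherever overlap is described below.

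Genes of cell division made up the 2 lists, of 27, with the largest share called in 1 direction. Of 38 mitosis and G2/M genes tested, 37 rose at 100 µM and none fell, with a median log2 difference of 0.88. Of 45 DNA replication and G1/S genes, 39 rose and none fell, with a median of 0.71. Over all 17951 features tested, 17.8% were called higher and 16.6% lower (34.4% together) at an edgeR adjusted p under 0.05, and the median log2 difference was close to 0. In replicate 2 alone 36 mitosis genes and 44 replication genes rose, with medians of 0.85 and 0.82, where 33.2% of 18323 features were called, 17.8% higher and 15.3% lower. In a bulk library, more cells in a stage and more transcript per cell cannot be told apart.

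BIRC5 encodes survivin, a subunit of the chromosomal passenger complex, and lies on chromosome 17 at 78214186 to 78225636 (GRCh38, GENCODE 29). It stood at 46.1, 46.4 and 46.3 CPM in the 10 µM libraries and 106, 122.4 and 99.0 CPM in the 100 µM libraries. Every 100 µM library was above every 10 µM library, and replicate 2 was the highest. The log2 difference was 1.24 ± 0.136 (SE, edgeR adjusted p = 1.29e-06), and 1.40 in replicate 2 alone (edgeR adjusted p = 5.29e-08).

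RRM2 encodes the small subunit of ribonucleotide reductase, which supplies deoxynucleotides for replication, and lies on chromosome 2 at 10120698 to 10131419. It stood at 114, 112 and 114 CPM at 10 µM and 216, 217 and 214 CPM at 100 µM. The 3 libraries of each dose lay close together and the doses did not overlap. The log2 difference was 0.93 ± 0.0580 (SE, edgeR adjusted p = 1.26e-09), and also 0.93 in replicate 2 alone.

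CENPF encodes a kinetochore protein of G2 and mitosis and lies on chromosome 1 at 214603195 to 214664588. Its levels were 85.5, 82.6 and 102 CPM at 10 µM and 191, 213 and 189 CPM at 100 µM, again without overlap. The log2 difference was 1.14 ± 0.106 (SE, edgeR adjusted p = 1.68e-07), and 1.24 in replicate 2 alone (edgeR adjusted p = 3.09e-05).

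**Figure D1:**
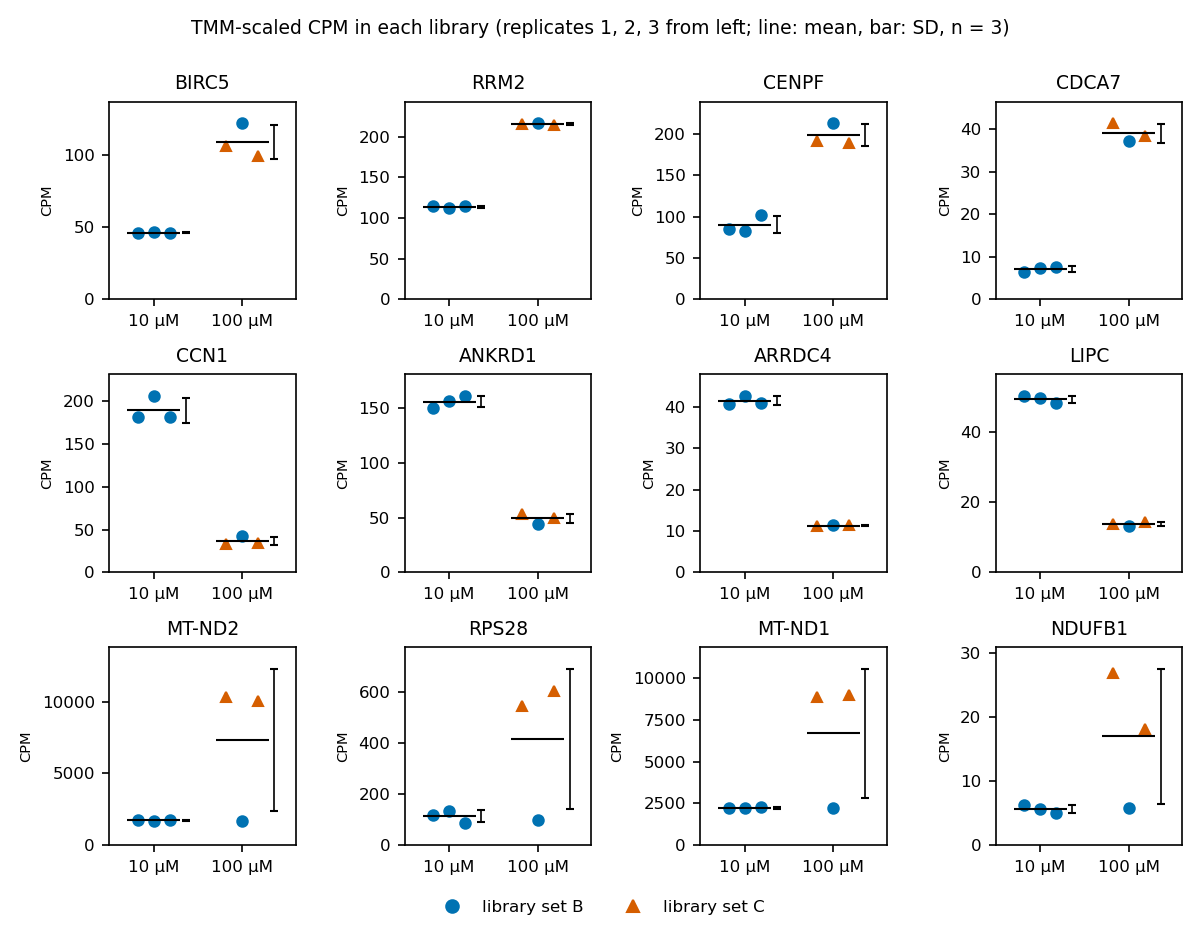
TMM-scaled CPM (linear axis from 0) of 12 genes in the 3 libraries at 10 µM and the 3 at 100 µM, with the mean as a line and the SD as a bar (n = 3). Circles are libraries of set B and triangles libraries of set C, the sets being defined by mitochondrial mRNAs. In the upper 2 rows 100 µM replicate 2, the circle, lies with the triangles, and in the lowest row it lies at the level of the 10 µM libraries.

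Among the motors and kinases of mitosis, KIF11, the kinesin that separates the spindle poles, stood at 42.6, 43.4 and 46.0 CPM at 10 µM and 106, 113 and 104 CPM at 100 µM. Its log2 difference was 1.29 ± 0.0895 (SE, edgeR adjusted p = 4.41e-09). CDK1, the kinase that drives entry into mitosis, stood at 34.7, 38.9 and 35.8 CPM against 95.5, 86.4 and 95.9 CPM, a log2 difference of 1.34. KIF2C, a kinesin that depolymerises microtubules at centromeres, went from 34.2, 34.1 and 33.4 CPM to 70.7, 85.7 and 70.1 CPM. PBK, a mitotic kinase, had the largest log2 difference on the list, 2.16, with 6.96, 7.40 and 7.61 CPM against 33.8, 31.4 and 32.8 CPM. All 4 rose in replicate 2 alone too, by 1.36, 1.24, 1.34 and 2.10 on the log2 scale. The other members named here were chosen after their values were seen. PLK1, a kinase of mitotic entry and cytokinesis, stood at 46.6, 47.7 and 45.2 CPM and at 170, 129 and 166 CPM, and its difference was 1.74 over all 3 libraries and 1.47 in replicate 2. CKS2, a CDK-binding subunit, was the only member not called, with a log2 difference of -0.13. HMMR, a spindle protein that binds hyaluronan, was called over the 3 libraries, with 0.30, but not in replicate 2, at 0.16, with library set as a term, at 0.21, or without 1 of the other 5 libraries, at 0.22 to 0.32.

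Among the genes of replication, MCM10, which helps load the replicative helicase and polymerase, stood at 12.96, 15.1 and 15.3 CPM at 10 µM and 34.8, 38.3 and 33.1 CPM at 100 µM. Its log2 difference was 1.29 ± 0.0948 (SE, edgeR adjusted p = 8.22e-09), and 1.40 in replicate 2. GINS2, a subunit of the helicase complex, stood at 9.64, 10.4 and 9.47 CPM against 30.2, 24.7 and 31.4 CPM, a difference of 1.54. E2F8, an atypical E2F that represses E2F targets, stood at 4.08, 3.65 and 4.50 CPM against 14.8, 12.3 and 14.3 CPM, a difference of 1.76. These 3 genes were called in replicate 2 as well and showed no overlap between doses (nor did 50.2% of all features). The 6 members not called over the 3 libraries had log2 differences from 0.03 to 0.39. All 39 members that rose were also called higher in replicate 2.

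CDCA7, which the 2 lists do not hold, was among the 8 largest rises of protein coding genes that held in replicate 2 (mean of at least 5 CPM). It encodes a zinc finger protein that is a known target of MYC and E2F1 and lies on chromosome 2 at 173354820 to 173368997. Its levels were 6.44, 7.45 and 7.58 CPM at 10 µM and 41.5, 37.2 and 38.3 CPM at 100 µM, with no overlap. The log2 difference was 2.45 ± 0.131 (SE, edgeR adjusted p = 2.06e-10) and 2.37 in replicate 2.

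The promoters of a few of these genes are shown, since genes of the same stage moved together. They are the bases before the RefSeq start (GRCh38.p14), up to 250, trimmed where GENCODE 29 has an exon of the gene, and run 5′ to 3′ on the gene's strand. Capitals mark TTTGAA (the cell cycle homology region core), CCAAT, TTTCCCGC and TTTGGCGC (E2F-type letters), on either strand. CDC20, CENPA and CENPF stand for mitosis, MCM6 for replication, and CDCA7 and RBL1 for genes with large rises. CENPA's window lies inside its gene as GENCODE 29 draws it.
CDC20, chr1:43358731-43358954, plus strand: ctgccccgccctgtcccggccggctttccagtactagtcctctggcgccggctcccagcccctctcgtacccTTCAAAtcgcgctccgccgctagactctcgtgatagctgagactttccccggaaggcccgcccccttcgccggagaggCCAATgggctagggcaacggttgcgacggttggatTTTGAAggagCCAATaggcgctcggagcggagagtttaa
CENPA, chr2:26785806-26785996, plus strand: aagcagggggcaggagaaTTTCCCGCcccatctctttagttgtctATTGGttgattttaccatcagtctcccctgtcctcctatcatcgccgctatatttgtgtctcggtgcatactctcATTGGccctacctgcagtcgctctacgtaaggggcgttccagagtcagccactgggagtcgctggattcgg
CENPF, chr1:214602945-214603194, plus strand: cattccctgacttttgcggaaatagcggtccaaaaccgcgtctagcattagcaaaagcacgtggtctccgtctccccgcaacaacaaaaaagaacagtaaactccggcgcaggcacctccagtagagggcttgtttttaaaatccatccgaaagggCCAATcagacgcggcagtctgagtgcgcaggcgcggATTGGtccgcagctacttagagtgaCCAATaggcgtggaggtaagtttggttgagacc
MCM6, chr2:135876444-135876693, minus strand: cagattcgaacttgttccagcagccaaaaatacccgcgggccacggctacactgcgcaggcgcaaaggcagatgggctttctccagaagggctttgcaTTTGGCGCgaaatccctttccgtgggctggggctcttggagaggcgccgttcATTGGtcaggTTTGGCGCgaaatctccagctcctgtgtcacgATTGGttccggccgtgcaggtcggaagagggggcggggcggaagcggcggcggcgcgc
CDCA7, chr2:173354622-173354819, plus strand: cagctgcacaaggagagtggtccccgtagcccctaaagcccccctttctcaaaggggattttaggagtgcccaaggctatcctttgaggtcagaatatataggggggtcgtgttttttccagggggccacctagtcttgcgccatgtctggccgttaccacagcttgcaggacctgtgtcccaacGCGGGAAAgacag
RBL1, chr20:37095998-37096247, minus strand: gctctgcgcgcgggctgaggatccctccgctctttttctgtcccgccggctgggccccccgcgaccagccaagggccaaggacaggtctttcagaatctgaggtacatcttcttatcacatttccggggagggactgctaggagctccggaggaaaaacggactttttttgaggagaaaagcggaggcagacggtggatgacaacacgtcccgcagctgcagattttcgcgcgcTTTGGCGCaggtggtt

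The same letters were counted over the whole promoter table. TTTGAA was found on either strand in 20 of 38 promoter entries (52.6%) of 31 mitosis genes matched by symbol, in 2 of 54 entries (3.70%) of 39 replication genes, and in 13.3% of all 35116 entries. TTTCCCGC or TTTGGCGC was found in 2 of the 38 mitosis entries (5.26%), in 16 of the 54 replication entries (29.6%) and in 1.93% of all. CCAAT was found in 76.3% of mitosis entries, 53.7% of replication entries and 32.0% of all. In 32 entries of 21 p53 targets, a list whose called members fell, the shares were 9.38% for TTTGAA, 12.5% for the E2F-type letters and 53.1% for CCAAT, so the E2F-type letters and CCAAT were above the share of all entries there too. These counts used the full window of 250 bases before the start, entries of 1 gene can overlap, and a match is a string of letters only. CDC20, CENPA and MCM6 were chosen for their sequence. CDC20 stood at 59.0, 57.9 and 52.8 CPM at 10 µM and 86.0, 79.8 and 87.0 CPM at 100 µM, a log2 difference of 0.57 that was 0.35, still called, with library set as a term. CENPA, the centromeric histone H3, stood at 8.74, 8.50 and 8.34 CPM against 20.2, 20.8 and 18.3 CPM, a difference of 1.22. MCM6, a helicase subunit, stood at 21.6, 18.7 and 18.8 CPM against 39.2, 43.4 and 39.0 CPM, a difference of 1.04. All 3 rose in replicate 2 alone within set B.

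The rise was also seen against the other doses. In all tested features, 5.09% had all 3 libraries at 100 µM above each of the 18 others, and 3.70% had them below. Of the replication list 36 of 45 members (80.0%) were above, and of the mitosis list 27 of 38 (71.1%). This position was chosen after the data were seen and takes the 10 µM libraries as part of the 18, so it is a description. Of the 18, 11 are in set A, which holds no 100 µM library, so dose and library set cannot be told apart there. At 1000 µM single members are given as examples, with no count over the lists. RRM2 stood at 101, 100 and 95.4 CPM there, MCM10 at 10.2, 10.9 and 9.04 CPM and GINS2 at 3.27, 3.44 and 4.35 CPM, each below every 10 µM library. KIF11 stood at 64.9, 66.6 and 59.5 CPM, CENPF at 162, 172 and 143 CPM and BIRC5 at 65.3, 65.2 and 53.02 CPM, each above every 10 µM library and below every 100 µM library. CDC20, a mitosis gene too, stood at 33.7, 36.7 and 52.9 CPM, so 1 of its libraries lay within the 10 µM range and the other two below it.

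**Figure D2:**
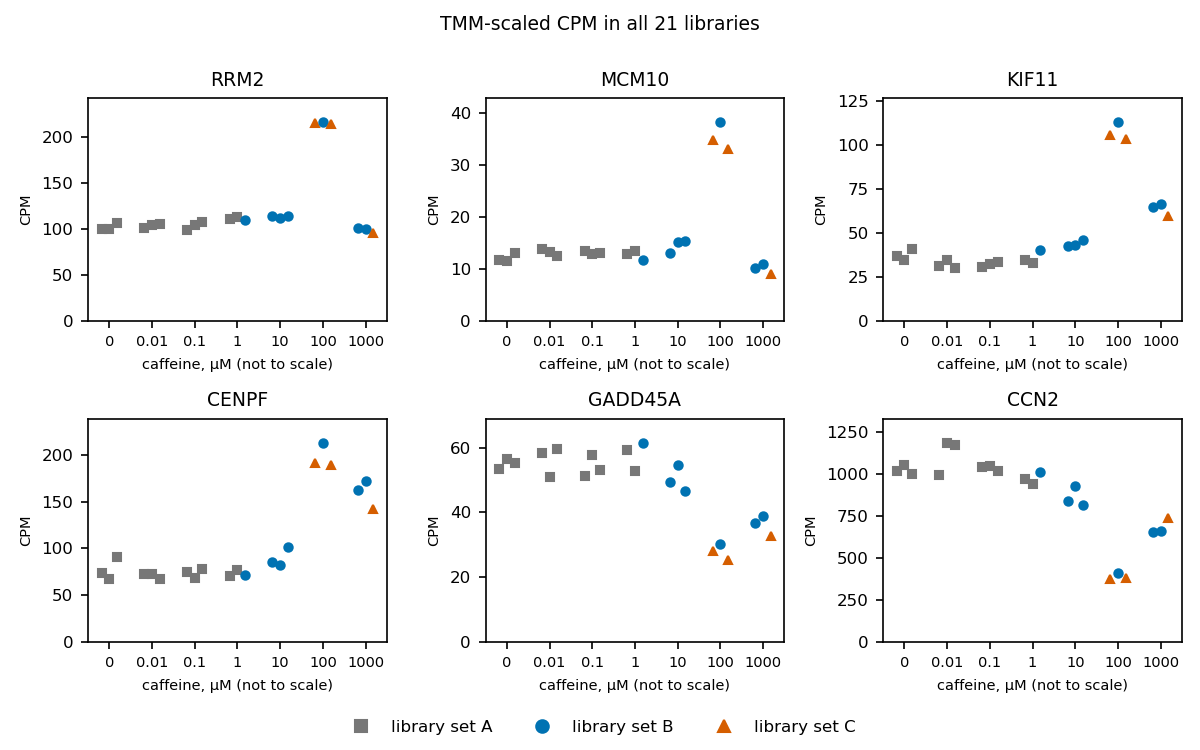
TMM-scaled CPM (linear axis from 0) of 6 genes in all 21 libraries by caffeine dose in µM, doses evenly spaced. Squares, circles and triangles are library sets A, B and C. RRM2, MCM10, KIF11 and CENPF are highest in the 3 libraries at 100 µM, and GADD45A and CCN2 are lowest there.

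The brakes and G1 regulators moved in both directions. Of 15 genes tested, 7 rose and 4 fell, and 10 of these held in replicate 2. The shares were 46.7% higher and 26.7% lower, beside 17.8% and 16.6% of all features. RBL1, the pocket protein p107 and itself an E2F target, stood at 10.8, 8.99 and 11.2 CPM at 10 µM and 43.6, 45.7 and 42.9 CPM at 100 µM. Its log2 difference was 2.09 ± 0.110 (SE, edgeR adjusted p = 1.78e-10), with 2.15 in replicate 2. CDK2, the partner of cyclins E and A, stood at 26.1, 25.5 and 24.5 CPM against 38.0, 39.9 and 42.6 CPM, and RBL2, the pocket protein p130, at 63.1, 59.6 and 68.1 CPM against 97.5, 93.3 and 96.2 CPM. CDKN2C, which encodes the CDK4 and CDK6 inhibitor p18, went from 6.58, 6.62 and 6.10 CPM to 11.0, 13.1 and 9.22 CPM. These rose by 0.66, 0.59 and 0.79 on the log2 scale. CDKN2D, which encodes the related inhibitor p19, fell from 9.99, 11.4 and 9.88 CPM to 0.150, 4.46 and 1.28 CPM, a log2 difference of -2.29 ± 0.547 (SE, edgeR adjusted p = 0.00431). In replicate 2 alone the difference of CDKN2D was -1.23, without replicate 2 it was -3.93, and with the library set as a term -1.51. It was not called in a fit of the 6 libraries alone. The other 4 were not called, with differences from -0.15 to 0.47.

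Targets of p53 went the other way from the division genes. Of 26 tested, 20 fell and none rose, with a median log2 difference of -0.47, and 19 of the 20 held in replicate 2, where the median was -0.36. The share lower was 76.9%, beside 16.6% of all features. GADD45A, which acts in growth arrest and DNA repair, stood at 49.3, 54.6 and 46.6 CPM at 10 µM and 28.1, 30.2 and 25.4 CPM at 100 µM, a log2 difference of -0.84 ± 0.0956 (SE, edgeR adjusted p = 1.85e-06). TP53INP1, a p53 cofactor linked to cell death and autophagy, went from 111, 106 and 117 CPM to 42.7, 62.2 and 47.3 CPM, a difference of -1.13, which was -0.84 in replicate 2 and -0.68 with library set as a term. RRM2B, the p53-induced ribonucleotide reductase subunit, fell by 0.74 on the log2 scale, from 74.4, 78.9 and 83.7 CPM to 44.9, 51.1 and 45.9 CPM. None of these 3 overlapped between doses (nor did 50.2% of all features). CDKN1A and MDM2, the inhibitor p21 and the ligase that degrades p53, were picked after their values were seen. CDKN1A stood at 147, 151 and 140 CPM against 109, 115 and 110 CPM, a difference of -0.39. MDM2 stood at 351, 379 and 402 CPM against 179, 303 and 212 CPM, a difference of -0.70 over the 3 libraries and -0.32 in replicate 2. MDM2 was not called with library set as a term, at -0.14, nor without 10 µM replicate 2 or 3 or 100 µM replicate 1 or 3, at -0.55 to -0.70. The 6 targets not called ranged from -0.42 to 0.52.

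Genes of homologous recombination and the Fanconi pathway, which mend breaks and stalled forks, moved with the replication genes. Of 25 tested, 19 rose and none fell, with a median log2 difference of 0.53, and all 19 held in replicate 2. The share higher was 76.0%, beside 17.8% of all features. CHEK1, the checkpoint kinase downstream of ATR, stood at 24.6, 24.3 and 26.5 CPM at 10 µM and 50.0, 48.5 and 52.1 CPM at 100 µM, a log2 difference of 1.00 ± 0.0841 (SE, edgeR adjusted p = 5.15e-08). BLM, the Bloom syndrome helicase, stood at 6.76, 7.27 and 7.38 CPM against 15.4, 15.8 and 16.0 CPM, a difference of 1.14. RAD54L, a DNA motor protein of recombination, stood at 14.9, 14.2 and 14.6 CPM against 27.9, 26.8 and 27.1 CPM, a difference of 0.90. The doses did not overlap for any of the 3 (nor for 50.2% of all features). ATM and ATR, the damage kinases, were not called, with differences of -0.45 and -0.09. ATM was called without 100 µM replicate 2, at -0.69, and without 1000 µM replicate 3, at -0.45.

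Targets of YAP and TGF beta, which respond to cell shape, matrix and growth factors, included CCN1, which was among the 8 largest falls of protein coding genes that held. Of 15 tested, 8 fell and 1 rose (TGFB1, 0.99), with a median log2 difference of -0.36, and 8 of the 9 held in replicate 2. These were 53.3% lower and 6.67% higher, beside 16.6% and 17.8% of all features. TGFB1 was at 0.53 in replicate 2 and was not called with library set as a term, at 0.30. CCN1, a secreted matrix protein on chromosome 1 at 85580761 to 85583962, stood at 181, 206 and 181 CPM at 10 µM and 33.1, 42.5 and 34.2 CPM at 100 µM. Its log2 difference was -2.37 ± 0.108 (SE, edgeR adjusted p = 3.29e-11), and -2.16 in replicate 2. ANKRD1, a nuclear ankyrin repeat protein, went from 151, 157 and 161 CPM to 53.3, 44.6 and 50.1 CPM, and CCN2, a close relative of CCN1, from 838, 929 and 817 CPM to 371, 410 and 381 CPM. Their differences were -1.66 and -1.15. THBS1, thrombospondin, went from 42.5, 42.7 and 46.3 CPM to 12.6, 20.1 and 14.1 CPM, a difference of -1.48 that was -1.12 in replicate 2 alone. No dose overlap was seen for these 4 (nor for 50.2% of all features).

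Autophagy and lysosome genes fell or were not called. Of 22 tested, 9 fell and none rose, with a median of -0.26, and 8 held in replicate 2. The share lower was 40.9%, beside 16.6% of all features. GABARAPL1, an ATG8-family protein of the autophagosome, stood at 46.5, 44.6 and 45.0 CPM at 10 µM and 15.7, 19.02 and 15.5 CPM at 100 µM, a log2 difference of -1.43 ± 0.144 (SE, edgeR adjusted p = 4.57e-07). WIPI1, which binds early autophagosome membranes, went from 125, 123 and 124 CPM to 81.5, 71.8 and 76.2 CPM. For both genes the doses were apart, as for 50.2% of all features.

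Other single genes with large falls bear on sugar and lipid handling. ARRDC4, an arrestin-like protein induced by glucose, fell from 40.7, 42.8 and 41.0 CPM to 11.1, 11.4 and 11.4 CPM, and the log2 difference was -1.88 ± 0.0754 (SE, edgeR adjusted p = 4.72e-12). LIPC, hepatic lipase, fell from 50.2, 49.6 and 48.2 CPM to 13.8, 13.3 and 14.5 CPM, a log2 difference of -1.83. SLC2A1, the glucose transporter GLUT1, rose from 226, 223 and 208 CPM to 576, 525 and 584 CPM, a difference of 1.36. All 3 held in replicate 2, by -1.87, -1.89 and 1.26. Of the 23 glycolysis and glucose transport genes tested, 3 rose and 2 fell, both at shares below the 17.8% and 16.6% of all features. Of these 5, 4 held, and the other 4 called members lay between -0.36 and 0.44.

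In sterol synthesis 11 of 24 genes fell (45.8%, beside 16.6% of all features) and none rose, with a median of -0.28. Of the 11, 9 held. FDPS, which makes farnesyl diphosphate, stood at 547, 546 and 540 CPM at 10 µM and 309, 343 and 303 CPM at 100 µM, a log2 difference of -0.77. SQLE, squalene epoxidase, was not called, with -0.02. Of 18 fatty acid and triglyceride synthesis genes, 4 rose and 7 fell, and 8 of the 11 held. The 22.2% higher was near the 17.8% of all features, and the 38.9% lower stood beside 16.6%. FADS2, the delta-6 desaturase, rose from 180, 173 and 174 CPM to 334, 321 and 333 CPM, and PNPLA3, a lipid droplet lipase, fell from 185, 190 and 203 CPM to 107, 130 and 116 CPM. Both held in replicate 2. Of 16 fatty acid oxidation and ketogenesis genes 1 rose and 2 fell, 6.25% and 12.5% and below the shares of all features, and all 3 held. SLC25A20, the mitochondrial carnitine carrier, went from 34.8, 33.0 and 32.0 CPM to 19.6, 23.4 and 18.8 CPM, a difference of -0.69.

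Single genes moved on the aryl hydrocarbon receptor list, on the list of adenosine receptors, phosphodiesterases and calcium release channels, and on the cAMP list. CYP1A1, the cytochrome P450 induced through the aryl hydrocarbon receptor (AHR), stood at 3.03, 3.13 and 2.59 CPM at 10 µM and 5.73, 5.95 and 6.18 CPM at 100 µM, a log2 difference of 1.03 ± 0.121 (SE, edgeR adjusted p = 2.98e-06), with 1.02 in replicate 2. NQO1, a quinone reductase shared with the NRF2 list, went from 554, 528 and 551 CPM to 693, 750 and 707 CPM, a difference of 0.40. Of the 7 AHR genes tested 2 rose and 1 fell, and all 3 held. Of 14 adenosine receptors, phosphodiesterases and calcium release channels tested, none rose and 2 fell. One was ADORA2B, an adenosine receptor, with 34.7, 34.5 and 33.1 CPM against 27.5, 30.2 and 26.4 CPM, a difference of -0.28 that was not called in replicate 2, at -0.18, nor without 100 µM replicate 3, at -0.24. The other was PDE1A, at 0.262, 0.308 and 0.320 CPM against 0, 0 and 0.0441 CPM, for which no fold is given and whose fall held. Of 16 cAMP-responsive and gluconeogenic genes 3 rose and 5 fell, and 7 of the 8 held. Shares called on these 3 lists ran from 0 to 28.6% higher and from 14.3% to 31.2% lower, beside 17.8% and 16.6% of all features. PDE4C, a cAMP phosphodiesterase, fell from 10.7, 9.17 and 11.0 CPM to 2.10, 3.11 and 2.07 CPM, a difference of -2.05, and CREB1, the cAMP-responsive factor, rose from 27, 26.5 and 29.2 CPM to 47.6, 52.3 and 49.0 CPM, a difference of 0.85. RAPGEF3, which encodes the cAMP-activated exchange factor EPAC1 and is on none of the lists, was among the 8 largest falls of protein coding genes that held. It stood at 8.68, 9.12 and 7.96 CPM against 2.44, 2.77 and 2.16 CPM, a difference of -1.79 that was -1.63 in replicate 2.

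Stress lists were called in both directions, at shares near those of all features. The NRF2, unfolded protein, ATF4 and heat shock lists had 18.8% to 25.0% of members called higher and 14.3% to 26.1% lower, where all features gave 17.8% and 16.6%, so nothing is read from these counts. Of 16 NRF2 genes 3 rose and 4 fell, and all 7 held. SRXN1, sulfiredoxin, fell from 176, 171 and 171 CPM to 78.8, 93.4 and 78.9 CPM, a log2 difference of -1.04. Of 21 endoplasmic reticulum chaperone and unfolded protein response genes 4 rose and 3 fell, and 6 of the 7 held. ATF6, a sensor of that response, rose from 21.0, 20.8 and 21.5 CPM to 53.7, 51.4 and 52.7 CPM, a difference of 1.32 that was 1.28 in replicate 2, while XBP1, a factor of another arm, fell by 0.45 on the log2 scale. Of 23 ATF4 genes 5 rose and 6 fell, and 9 of the 11 held. ATF5, a factor of that response, stood at 10.4, 11.4 and 11.8 CPM against 22.0, 20.0 and 18.8 CPM, and DDIT4, an inhibitor of mTORC1 signalling, at 262, 273 and 249 CPM against 127, 168 and 107 CPM. The differences were 0.85 and -0.96, and 0.83 and -0.64 in replicate 2. Of 16 heat shock genes 4 rose and 3 fell, and 6 of the 7 held. DNAJB1, a partner of HSP70, fell from 251, 251 and 252 CPM to 151, 134 and 152 CPM, a difference of -0.79, and HSPB1, a small heat shock protein, stood at 26.9, 31.4 and 23.1 CPM against 76.9, 42.0 and 72 CPM, a difference of 1.23 that was 0.63 in replicate 2 and, with library set as a term, 0.42 and not called. Of 17 immediate early genes 1 rose and 6 fell, shares of 5.88% and 35.3%, and in replicate 2 the rise and 2 of the 6 falls held. FOSL2, a FOS-family factor, fell from 28.5, 30.7 and 31.9 CPM to 17.0, 20.4 and 19.3 CPM, a difference of -0.68, and KLF6, a zinc finger factor, fell by 0.43 on the log2 scale, and both held. DUSP1, a MAP kinase phosphatase, and JUNB, a JUN-family factor, had differences of -0.81 and -0.89 and were not called in replicate 2, at -0.63 and -0.48. The riser was EGR1, a zinc finger factor, at 10.7, 12.1 and 8.83 CPM against 19.8, 21.4 and 23.0 CPM, and it was picked after its values were seen.

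Of 31 hepatocyte plasma protein genes 4 rose and 4 fell, 12.9% each way and below the 17.8% and 16.6% of all features, and 7 of the 8 held. ALB, albumin, stood at 12022, 11865 and 12196 CPM at 10 µM and 8345, 8719 and 8612 CPM at 100 µM, a log2 difference of -0.49 ± 0.104 (SE, edgeR adjusted p = 0.00124), and -0.47 in replicate 2. Of 17 hepatocyte transcription factors 7 rose and none fell, and all 7 held. The share higher was 41.2%, beside 17.8% of all features. CEBPA, a factor that restrains hepatocyte division, was at 39.0, 42.9 and 35.3 CPM against 51.4, 83.1 and 56.6 CPM, and replicate 2 was the highest, with no overlap between doses. Its difference was 0.71, which was 1.09 in replicate 2 and 0.46 without it. Of 16 SR splicing factor genes 9 rose (56.25%, beside 17.8% of all features) and none fell, with a median of 0.38. Of the 9, 7 held. SRSF3 stood at 202, 213 and 206 CPM against 314, 278 and 309 CPM, without overlap.

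**Figure D3:**
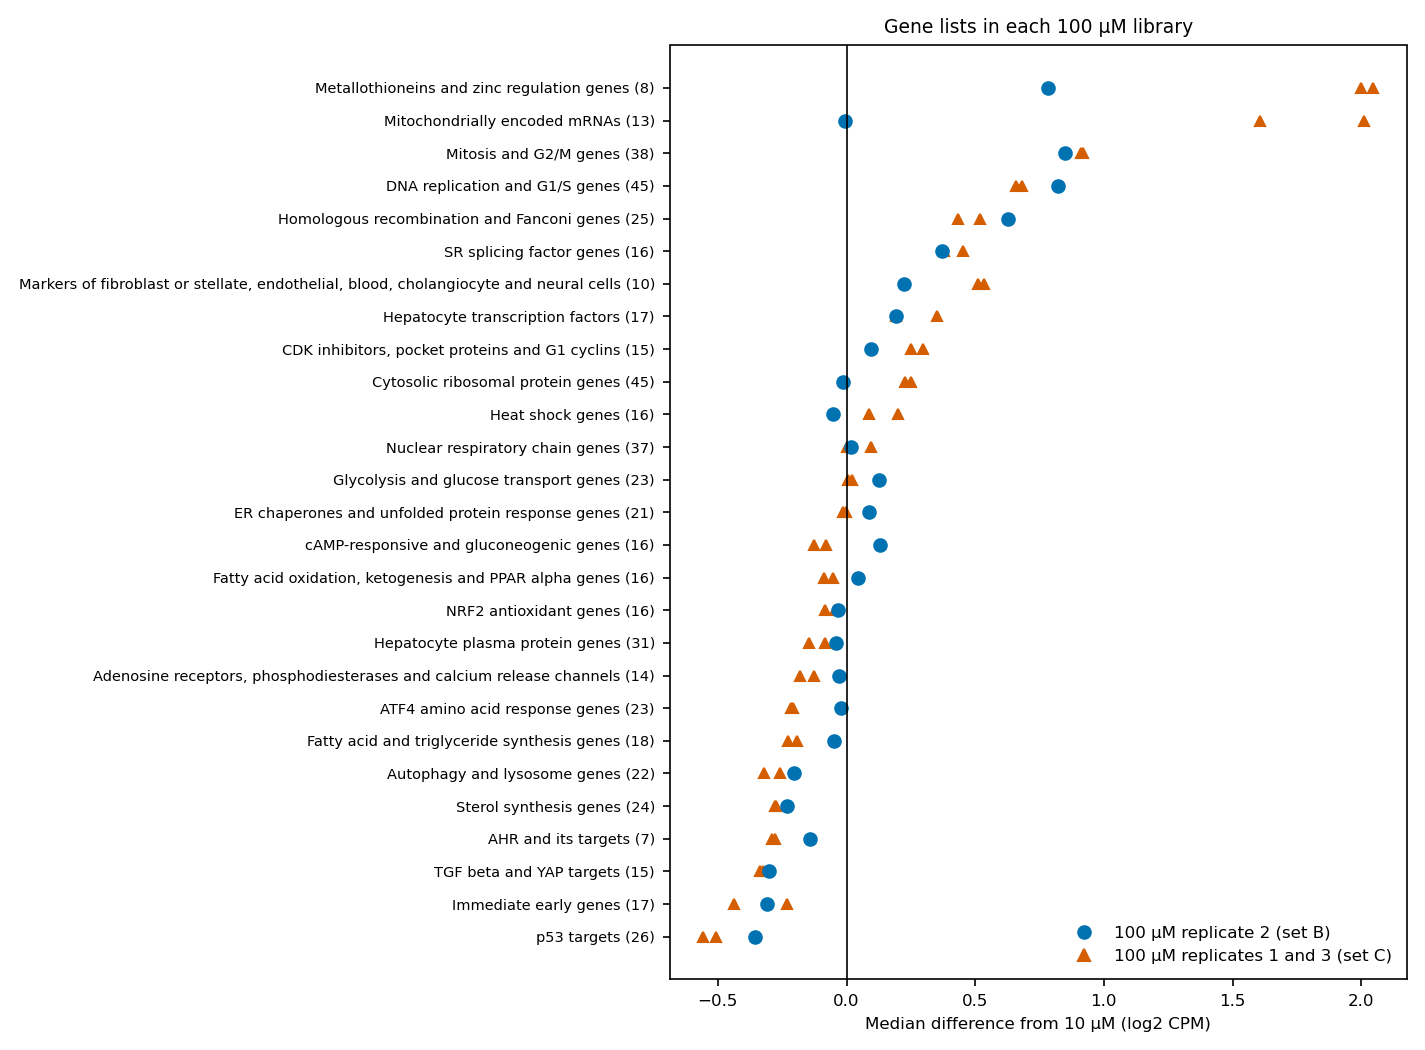
Median over the tested members of each gene list of log2 CPM minus the mean log2 CPM at 10 µM, for each 100 µM library, with the number tested in parentheses. The circle is replicate 2 and the triangles are replicates 1 and 3. For the mitosis and replication lists the 3 symbols lie between 0.66 and 0.92, and for mitochondrially encoded mRNAs the circle lies at 0 and the triangles at 2.01 and 1.61.

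Several differences did not hold in replicate 2. Of 13 mitochondrially encoded mRNAs, 9 were called higher over the 3 libraries (69.2%, beside 17.8% of all features), with a median log2 difference of 1.44. Of these, 1 (MT-ND6) was called higher in replicate 2, where the median was -0.01. The list's median difference from 10 µM was 2.01 and 1.61 in replicates 1 and 3. The libraries were put into sets by these mRNAs, so the gap between replicates is how the sets were made. MT-ND2, a complex I subunit, stood at 1759, 1711 and 1774 CPM at 10 µM and 10355, 1652 and 10072 CPM at 100 µM. Its log2 difference was 2.07 ± 0.689 (SE, edgeR adjusted p = 0.0304) and -0.08 in replicate 2 alone. MT-ND1, another complex I subunit, stood at 2210, 2209 and 2285 CPM against 8848, 2212 and 8999 CPM. Replicate 2 lay within the 10 µM range for MT-ND1, with a difference of -0.02, and below it for MT-ND2. With library set as a term both were at -0.03 and neither was called. Neither gene was called when any 1 of the other 5 libraries of the 2 doses was left out, and MT-ND2 then ranged from 1.74 (without 100 µM replicate 1) to 2.08. MT-ND6, the only member that held, had 253, 274 and 262 CPM against 1164, 354 and 801 CPM, a difference of 1.55 that was 0.43 in replicate 2, and was not called with the library set as a term, at 0.66.

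The same split was seen in some nuclear genes. RPS28, a small-subunit ribosomal protein, stood at 118, 134 and 89.1 CPM at 10 µM and 547, 99.2 and 604 CPM at 100 µM, a log2 difference of 1.87 over the 3 libraries and -0.20 in replicate 2. NDUFB1, a nuclear complex I subunit, stood at 6.29, 5.65 and 4.97 CPM against 26.9, 5.82 and 18.1 CPM, a difference of 1.58 that was 0.04 in replicate 2. With library set as a term neither was called, at -0.08 for RPS28 and 0.41 for NDUFB1. RPS28 was not called either when any 1 of the other 5 libraries was left out, at 1.505 to 2.01, or by limma-voom, at 1.49, as MT-ND2 and MT-ND1 were not, at 1.65 and 1.31. Of 37 nuclear respiratory chain genes 5 were called higher and 1 lower, and 3 of the 6 held. UQCRQ, a complex III subunit, stood at 16.2, 16.3 and 14.2 CPM against 47.6, 15.9 and 41.2 CPM, a difference of 1.16 that was 0.03 in replicate 2 and was not called with library set as a term, at 0.19, or without 100 µM replicate 1 or 3, at 0.86 and 1.02. Of 45 cytosolic ribosomal protein genes 6 were called higher and 1 lower, with a median of 0.16, and 1 of the 7 held in replicate 2, where the median was -0.02. The shares called on the respiratory chain and ribosomal lists, 13.5% and 13.3% higher and 2.70% and 2.22% lower, were below the 17.8% and 16.6% of all features. MT-ND2, MT-ND1, RPS28 and NDUFB1 were named because replicate 2 did not lie above the 10 µM range. At 1000 µM, which the choice did not use, RPS28 stood at 129, 118 and 562 CPM, and replicate 3, the set C library, was the high one. The 4 falls named by the same rule, C1orf122, ZNF426, SHB and MAZ, were smaller, from -0.52 to -0.65, and from -0.02 to -0.23 in replicate 2. None was called with library set as a term, at -0.09 to -0.52. All 4 lost their calls without 100 µM replicate 1 or without replicate 3, with values from -0.37 to -0.55, and each lost its call without at least 1 library at 10 µM, at -0.43 to -0.61. Without replicate 2, ZNF426, SHB and MAZ were called at -0.93, -0.92 and -0.87. ZNF426 also lost its call without any 1 of the 3 untreated libraries, the 6 at 0.01 and 0.1 µM, or 1 µM replicate 1 or 2, at -0.56 to -0.57. MAZ, a zinc finger factor, stood at 189, 195 and 169 CPM against 99.7, 182 and 102 CPM.

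Metallothioneins, small zinc-binding proteins, were higher at 100 µM, by less in replicate 2. Of 8 metallothionein and zinc regulation genes tested 5 rose and 2 fell, with a median of 1.83 and of 0.78 in replicate 2, and 5 of the 7 held. These were 62.5% higher and 25.0% lower, beside 17.8% and 16.6% of all features. MT2A stood at 4.34, 5.01 and 3.81 CPM at 10 µM and 25.0, 8.74 and 22.1 CPM at 100 µM. Its log2 difference was 2.07 ± 0.322 (SE, edgeR adjusted p = 0.000102) and 0.99 in replicate 2 alone (edgeR adjusted p = 7.08e-05). MT1G stood at 1.89, 1.52 and 1.39 CPM against 10.8, 3.37 and 10.9 CPM, a difference of 2.37 that was 1.07 in replicate 2. MT2A and MT1G had differences of 1.24 and 1.37, both still called, once library set entered as a term. Metallothioneins are near-identical in sequence, so the split of reads among them is uncertain. THSD8 had the largest rise of all genes named, 3.87, with 0.553, 1.03 and 0.785 CPM against 18.5, 1.71 and 14.9 CPM, and 1.099 in replicate 2. It was not called when any 1 of the other 5 libraries was left out, at 3.36 to 4.11, nor without 0.01 µM replicate 2 or 0.1 µM replicate 1, at 3.87 both times, nor with the library set as a term, at 0.38. DESeq2, at 3.90, and limma-voom, at 3.06, did not call it. APOA2, an HDL apolipoprotein, was at 1151, 1181 and 970 CPM against 3000, 1390 and 2695 CPM, and its log2 difference of 1.102 was 0.34 in replicate 2 and 0.41 with library set as a term.

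The remaining protein coding genes with the largest differences that held were on no list. SPOUT1 stood at 2.82, 1.87 and 1.37 CPM at 10 µM and 14.4, 12.2 and 19 CPM at 100 µM, a log2 difference of 2.90, and FSTL4 at 1.92, 1.75 and 1.54 CPM against 10.1, 9.46 and 11.2 CPM, a difference of 2.56. TTC5, a factor that marks tubulin mRNAs for decay, stood at 2.07, 2.13 and 1.54 CPM against 7.57, 11.1 and 7.63 CPM, a difference of 2.20. DUSP12, a dual-specificity phosphatase, stood at 3.52, 3.80 and 2.91 CPM against 16.3, 14.1 and 16.2 CPM, a difference of 2.18. ARHGAP11B, at 2.29, is a partial copy of ARHGAP11A, so its counts are uncertain. ACTA1, skeletal muscle actin, fell from 13.9, 14 and 10.9 CPM to 2.44, 2.26 and 1.90 CPM, a difference of -2.55, and shares sequence with the other actins. USHBP1 fell from 10.5, 10.7 and 11.0 CPM to 2.17, 3.11 and 2.38 CPM, a difference of -2.04. No doses overlapped for these 7 genes, which the rule required.

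Counted over all features, 6177 of 17951 were called, 3197 higher and 2980 lower. Of these, 4417 (24.6% of those tested, 71.5% of those called) were called the same way in replicate 2 alone, 2341 of the 3197 higher and 2076 of the 2980 lower. None was called the opposite way there, but both tests share replicate 2 and the 10 µM libraries, so agreement in direction is largely built in. A further 856 higher and 904 lower features were not called in replicate 2. Replicate 2 lay beyond all 10 µM libraries on the called side for 3018 of the 3197 and 2905 of the 2980. For 9007 features (50.2%) all 3 libraries at 100 µM lay on 1 side of the 3 at 10 µM. Once library set entered the fit over 21 libraries as a term, 5145 features (28.7%) were called, 4084 of them also called, in the same direction, without the term. Over the 19 libraries without 100 µM replicates 1 and 3, replicate 2 alone gave 2513 called features, and 2364 of the 6177 then held. Of the genes given above whose calls held within set B, CDC20, CDKN1A, MDM2, TGFB1, DDIT4, HSPB1, EGR1, ALB, APOA2, MT-ND6, MT1G, THSD8, LYZ and PDGFRB were not called in that fit.

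**Figure D4:**
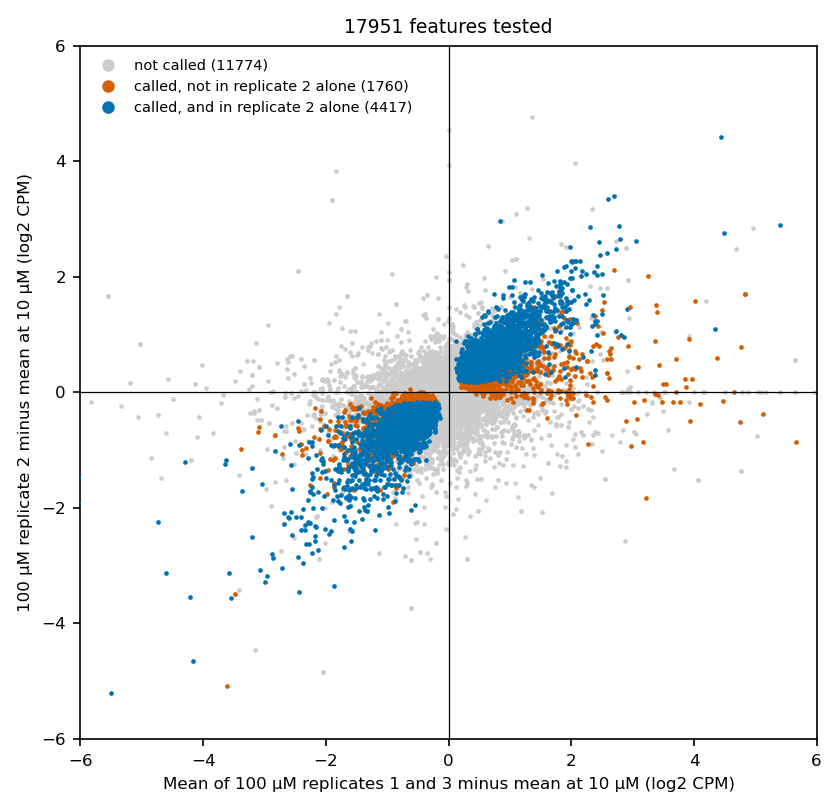
Difference from the mean at 10 µM in log2 CPM, for the mean of 100 µM replicates 1 and 3 (horizontal) and for replicate 2 (vertical), 1 point per tested feature. Blue points were called over the 3 libraries and in replicate 2 alone (4417), orange points over the 3 libraries only (1760), and grey points neither way over the 3 libraries, and 15 features lie outside the axes at 6. The blue points lie in the 2 quadrants of equal sign, and many orange points at the far right lie near 0 vertically.

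Over the 27 lists, 567 of 608 distinct genes were tested and 280 were called, 181 higher and 99 lower, of which 235 held in replicate 2. Of the 10 markers of other cell types that were tested, 5 were called higher, ACTA2, LYZ, PDGFRB and CD14 among them, and none lower, and 3 of the 5 held. ACTA2 and CD14 did not, at 0.12 and 1.08. The share of these markers called higher was 50.0%, beside 17.8% of all features. LYZ, with a log2 difference of 0.37, was not called without 10 µM replicate 2 or 3 or without 100 µM replicate 1 or 3, at 0.35 to 0.37, and neither was ACTA2 in these 4 fits, without 10 µM replicate 1 or without any 1 of 8 libraries at 0 to 1 µM, at 0.31 to 0.40. CD14 was not called without 10 µM replicate 1 or 2 or 100 µM replicate 1 or 3, at 0.95 to 1.21. With library set as a term ACTA2 and CD14 were not called, at 0.04 and 0.74. The part of other cells in the results was not tested. A gene missing from these counts did not reach the filter on low counts or is not in the table.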

How the data were processed

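The deposited table holds raw read counts per feature and library, whole numbers that the authors left unnormalized. HISAT2, DESeq2 and GRCh38 are named, per the submitters' processing notes, without roles or versions; the counting tool, annotation and use of strand are not given in the sources used here. The table has 37637 features, 4700 of them unannotated loci, and 21 further per-sample columns were not used. Symbols were matched by identifier for 24852 features, and gene positions and types came from GENCODE 29.

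Features were kept by filterByExpr, scaled by TMM and tested in 1 fit over all 21 libraries with edgeR 4.0.16 (R 4.3.3), quasi-likelihood F-test, 2-sided, Benjamini-Hochberg adjusted over all features, threshold 0.05. The SE is the size of the log2 difference divided by the root of F. Replicate 2 alone was tested by the same steps within the 7 libraries of set B. A call held when both tests called it in 1 direction. On simulated counts the first test recovered 42 of 67 genes changed 2-fold, with 4 false calls among 17391 unchanged features, and the second 46 of 67, with 25 among 17573. The simulated libraries held no difference between library sets, so these counts say nothing of false calls from that split. List medians per library used log2 CPM with a prior count of 2. Counting error only is covered by the depth given, since reads carry no molecular identifiers.

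Genes were named by a rule: BIRC5, RRM2 and CENPF; the 8 largest rises and 8 largest falls that held, with a mean of at least 5 CPM and no overlap between doses; the 4 largest rises and 4 largest falls in which replicate 2 did not lie beyond the 10 µM range on the called side, with the same mean, both among protein coding genes only; and up to 4 members per list with the smallest p. Only the members described are printed, some members are not reported here, and genes named outside the rule, TGFB1, ATM, ATR, SQLE and ACTA2 among them, were chosen after their values were seen. The comparison, the gene lists and the library sets were chosen with earlier results of these data known. Alternatives were DESeq2 size factors, DESeq2 1.42.0, limma-voom 3.58.1, other filters, only the 6 libraries, the replicate number as a block, the library set as a term, no mitochondrial transcripts, and each library left out.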

Additional observations from a re-analysis of the deposited data

How the results depend on the processing

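The number of called features stayed within 1.5 times 6177 under every alternative but 1: testing 100 µM replicate 2 in a fit over 19 libraries, without replicates 1 and 3, gave 2513. That fit also gave 2513 in place of the 6076 called within set B, 155 list members in place of 280, and 2364 features that held in place of 4417. The cause was not tested. Leaving out 1 library at a time gave 4434 (without 100 µM replicate 1) to 7045 (without 100 µM replicate 2) called features, 5100 to 7178 for replicate 2 alone, 3860 to 4632 that held, 9788 to 12843 on 1 side, 35 to 37 mitosis genes, 38 to 40 replication genes and 219 to 308 list members. Same-numbered libraries did not deviate together (Pearson r of 0.01, -0.01 and -0.04 across features, which are not independent replicates). The gap between replicate 2 and replicates 1 and 3 at 100 µM enters these deviations, so they cannot decide whether the numbers pair the cultures. The main fit took no pairing, and the fit with the replicate block called 5922. The block ended the calls of THSD8, RPS28 and HMMR, at 3.59, 1.71 and 0.30. Without a filter on low counts THSD8, MT-ND1, MT-ND2, RPS28, ZNF426, SHB, MAZ, ADORA2B, HMMR and MDM2 were not called, and with only the 6 libraries CDKN2D, MT-ND1, MT-ND2, RPS28, NDUFB1, UQCRQ, C1orf122, ZNF426, SHB and MAZ were not. In replicate 2 alone the medians of the heat shock, mitochondrially encoded and ribosomal protein lists changed sign, to -0.061, -0.0078 and -0.016, and the ribosomal median was -0.0072 once library set entered as a term. The fatty acid oxidation median, small in both, went from -0.021 over the 3 libraries to 0.041 in replicate 2. Genes changed sign in the same way. With the set as a term, within set B and over 19 libraries, MT-ND2 gave -0.028, -0.083 and -0.076, RPS28 -0.076, -0.20 and -0.19, and MT-ND1 -0.033, -0.017 and -0.010 on the log2 scale. Some genes that were not called changed sign as well: once set entered as a term, CKS2 gave 0.18, ATM 0.069 and ATR 0.21, over 19 libraries CKS2 gave 0.0031 and ATR 0.099, and within set B ATR gave 0.093. Over the 99 genes given with a difference, 2976 of 3159 values under alternatives kept their direction and side of the threshold, 166 were no longer called, 2 became called and 15 changed sign. Depth limits low genes most, since 100 µM replicate 3 had 23502519 counts and replicate 2 had 44815552.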

Other observations

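Transcripts that code for no protein were described after their values were seen. The largest rise among those that held, with a mean of at least 5 CPM, was in MVP-DT, annotated antisense, which stood at 9.49, 9.45 and 9.47 CPM at 10 µM and 51.6, 11.7 and 48.4 CPM at 100 µM, a log2 difference of 1.97 that was 0.31 in replicate 2. It was not called with library set as a term, at 0.99, or without 100 µM replicate 1 or 3, at 1.65 and 1.73. SNHG11, a small nucleolar RNA host gene, stood at 3.90, 3.47 and 3.28 CPM at 10 µM and 10.5, 8.72 and 11.6 CPM at 100 µM, a log2 difference of 1.53 that was 1.29 in replicate 2. HPAT5, a primate long noncoding RNA, fell from 21.0, 23.1 and 21.0 CPM to 5.21, 7.63 and 4.06 CPM, a difference of -1.92. CCNT2-AS1 fell from 19.3, 18.8 and 20.2 CPM to 5.28, 3.50 and 4.68 CPM, a difference of -2.13. ABALON, annotated antisense, fell from 43.0, 43.9 and 42.5 CPM to 15.1, 20.4 and 16.9 CPM. Reads of antisense genes cannot be told apart from those of their partners, because use of strand is not given in the sources used here.

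The share of called features that held in replicate 2 is given by gene type, with no test. It was 75.9% for the called among 13010 protein coding genes tested, 51.3% among 3080 other annotated features and 48.6% among 1697 unannotated loci. By size of the log2 difference it was 67.1% below 0.5, 77.6% from 0.5 to 1 and 67.5% at 1 or more.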
